A study of Mus musculus with 10 samples.

Results

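Potassium channel genes were compared between the aorta of wild-type mice and of mice carrying an NPAS2 mutation. The genes were taken by name: every gene whose symbol begins with Kcn and that had a probe set assigned to it alone on the array. This gave 84 genes, on 167 probe sets, of 18193 genes with such a probe set. Each gene was followed on the probe set with the highest mean over all 10 arrays. Wild type (C57Bl/6) and NPAS2 mutant (on a C57Bl/6J background) were each measured on 5 arrays of total RNA from male aorta. All mice were killed at ZT14 (zeitgeber time, counted in hours from lights on), after at least 2 weeks of 12 h light and 12 h dark. That cycle was followed by constant darkness for 30 h or longer. ZT14 is therefore early night by the earlier light schedule, not by lights on that day. The nature of the NPAS2 allele is not given in the sources used here. No label ties an array to its own mouse. The p-values therefore measure the spread between these arrays, which may be technical.

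Potassium channels let potassium leave the cell along its gradient, which holds the membrane of a vascular smooth muscle cell negative and limits calcium entry and contraction. Voltage-gated, calcium-activated, inward rectifier and leak channels share this task in the arterial wall, and auxiliary subunits set how each pore opens. NPAS2 is a transcription factor of the circadian clock that pairs with BMAL1 and binds the E-box, CACGTG, in DNA. The array measures transcripts in whole tissue, so fewer cells of a type and less RNA per cell cannot be told apart.

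Most potassium channel genes gave little signal in aorta. Of the 84 genes, 29 (34.5%) exceeded the median of their own array on at least 5 arrays and were tested. Over the whole array 10945 genes were tested, beside 18193 with a probe set of their own. Each of the 29 exceeded the median on all 10 arrays, so no gene entered through 1 group alone. Of the remaining 55 genes, 51 were below the median on every array. The dimmest tested gene was Kcnk13, at a mean log2 level of 3.26, and Kcnn2, above the median on 3 arrays, was the brightest gene left out, at 3.18. The smooth muscle genes Acta2 and Myh11 stood at mean log2 levels of 14.42 and 13.40 in wild type, so the muscle of the labelled tissue was present. The labels give the dissected stretch both as thoracic aorta and as a longer piece beyond it. Array medians lay between 3.14 and 3.20 on the log2 scale.

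None of the 29 tested potassium channel genes passed the test across all probe sets. The fit was limma over 22340 probe sets with Benjamini-Hochberg adjustment at 0.05, in which 0.215% of probe sets passed (0.0940% higher and 0.121% lower in the mutant). The lowest adjusted p among the 29 was 0.0711, for Kcnc4. At an unadjusted p of 0.05, 4 of the 29 (13.8%) were counted, beside 15.3% of all tested probe sets. Of the 4, 3 had a lower mean in the mutant (10.3%, beside 10.6% of all tested probe sets) and 1 had a higher mean (3.45%, beside 4.75%). The groups did not overlap for 1 gene, Kcnab1 (3.45%, beside 4.01% of all tested probe sets, or 2.50% with the mutant lower as here). These shares were near the background. The mean was lower in the mutant for 17 of the 29 and higher for 12, and 57.6% of all tested probe sets had a lower mean. The median change was -0.07 on the log2 scale, beside -0.03 over all tested probe sets. The median absolute change was 0.11, beside 0.10 over all tested probe sets. Of the 28 channel genes listed as known from vascular tone, 17 were tested. Of the 17, 13 (76.5%, beside 57.6% of all tested probe sets) had a lower mean in the mutant, with a median change of -0.13. The 17 are not separate from the counts above. They include all 4 genes with an unadjusted limma p under 0.05, 3 of them lower and 1 higher in the mutant. The mean of the 17 lay between 5.909 and 5.968 on wild-type arrays and between 5.720 and 5.907 on mutant arrays, so the groups nearly touched without overlapping. None of the 17 passed after adjustment, and the list was chosen with earlier results of these data known.

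**Figure D1:**
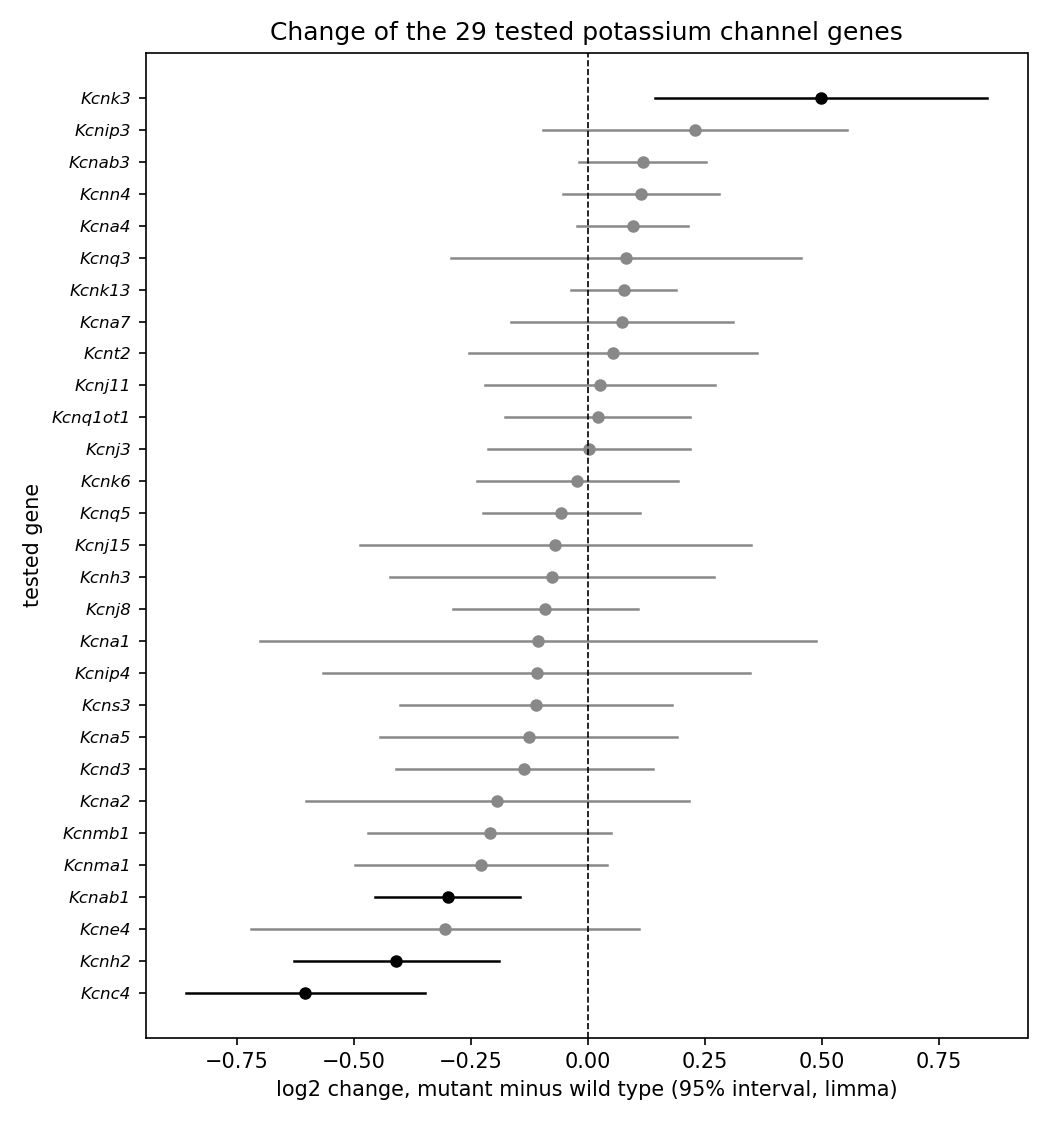
Log2 change, mutant minus wild type, of the 29 tested potassium channel genes (vertical axis), with 95% intervals from limma on 5 arrays per group. Black marks the 4 genes with an unadjusted p under 0.05 (Kcnc4, Kcnh2 and Kcnab1 lower, Kcnk3 higher), whose intervals leave out 0, and grey the other 25.

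Among the voltage-gated channels, the beta subunit gene Kcnab1 separated the groups. It encodes a cytoplasmic protein that binds voltage-gated channels of the Kv1 family and speeds their inactivation. Its log2 level was 8.69, 8.54, 8.64, 8.51 and 8.45 on wild-type arrays F11, F14_2, F15, F16 and F17. On mutant arrays F12, F13, F18, F19 and F20 it was 8.18, 8.20, 8.42, 8.33 and 8.21. All 5 mutant arrays were below all 5 wild-type arrays, with F18 and F17 the closest across the gap. The change was -0.30 ± 0.07 (SE), 1.23-fold lower, and limma gave an adjusted p of 0.121. The dimmer of the gene's probe sets differed by -0.24 (adjusted p = 0.352). Smooth muscle markers also had lower means in the mutant, 9 of 10 genes (90%, beside 57.6% of all tested probe sets). Of the 10, 5 had an unadjusted limma p under 0.05 (50%, beside 15.3%). The groups did not overlap for 2 (20%, beside 4.01%), and 0 of the 10 markers passed after adjustment. Their mean level lay between 10.77 and 11.06 on wild-type arrays and between 10.60 and 10.89 on mutant arrays. The exception was Des, which skeletal muscle also expresses and which stood at 8.41 on mutant F12, the array with the highest skeletal muscle list mean. Over the other 9 markers the mean lay between 11.30 and 11.55 on wild-type arrays and between 11.11 and 11.35 on mutant arrays, and 3 mutant arrays were below every wild-type array. Fitted beside that list mean (an alternative chosen after seeing the data), Kcnab1 had a change of -0.25 ± 0.08 (SE, adjusted p = 0.343), and beside the mean of the 9 markers without Des it had one of -0.17 ± 0.09 (SE, adjusted p = 0.686).

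Since NPAS2 binds the E-box, promoter windows of 300 bases (250 before and 50 after a start, RefSeq, GRCm38.p6) were searched for CACGTG, which reads the same on both strands. Of the 64 potassium channel genes with a window, 5 (7.81%) held the motif, beside 8.09% of all 27025 genes in the table. Of the 22 tested genes with a window it was 3 genes (13.6%), Kcnab1, Kcne4 and Kcnn4. The 8.09% covers genes of any level, and no share was taken over tested genes alone. Kcnab1 had the motif in 2 of its 3 windows, which belong to different starts. It lay 162 bases before the start of the first and 45 bases before that of the second. Both lie inside the span of the gene (chr3, 64949212 to 65378225), and which start the Kcnab1 probe set reports was not tested. In Kcne4 the motif lay 54 bases before the start. These stretches are shown because Kcnab1 is the gene whose groups did not overlap and Kcne4 is the other bright gene with a match. The motif is in capitals and all 3 lie on the plus strand.
Kcnab1, first window, chr3:65108825-65108884: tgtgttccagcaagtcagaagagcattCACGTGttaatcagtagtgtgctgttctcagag
Kcnab1, second window, chr3:65188031-65188090: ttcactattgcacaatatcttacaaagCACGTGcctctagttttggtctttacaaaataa
Kcne4, chr1:78816830-78816889: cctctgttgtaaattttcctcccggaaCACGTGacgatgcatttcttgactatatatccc
A match describes the letters in these windows and is not a measured binding site.

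The pore subunit genes of the Kv1 family had small differences. Of 7 on the array 5 were tested, 3 with a lower and 2 with a higher mean in the mutant. Kcna5, an oxygen-sensitive channel of arterial muscle, had a wild-type mean of 4.47 ± 0.26 (SD, n = 5). Its mutant mean was 4.35 ± 0.24 (SD, n = 5). Its 95% interval ran from -0.44 to 0.19, and the groups overlapped. Kcna4 had a change of 0.10 ± 0.05 (SE, adjusted p = 0.408) at a low level (3.38 in wild type), and each of the 5 mutant arrays exceeded the wild-type mean. The Kcna4 groups still overlapped. Kcna7 had a change of 0.07 (adjusted p = 0.765). Kcnab3, the beta subunit gene next to Kcnab1 in name, had a change of 0.12 ± 0.06 (SE, adjusted p = 0.379), also at a low level of 3.27 in wild type.

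Kcnc4 and Kcnh2 had the largest negative changes of the tested genes. Kcnc4 encodes a fast voltage-gated pore subunit of the Kv3 family. Its log2 level was 5.70, 5.37, 5.93, 5.91 and 5.90 on wild-type arrays F11, F14_2, F15, F16 and F17, and 5.03, 5.40, 5.14, 5.08 and 5.15 on mutant arrays F12, F13, F18, F19 and F20. Wild-type F14_2 was low for its group and lay just below mutant F13, so the groups overlapped at that point. The change was -0.60 ± 0.12 (SE), 1.52-fold lower, with a limma adjusted p of 0.0711. Without F14_2 the change was -0.70 and the adjusted p was 0.0225. Dropping each of the remaining 9 arrays in turn gave Kcnc4 an adjusted p between 0.0825 and 0.159. This probe set is of the type whose probes can match several transcripts. The other Kcnc4 probe set was too dim to test and stood at 3.16 in wild type and 3.01 in the mutant. Fitted beside the smooth muscle list mean, Kcnc4 had a change of -0.76 ± 0.12 (SE, adjusted p = 0.111). Fitted beside the brown fat list mean, it had one of -0.46 ± 0.22 (SE, adjusted p = 0.655). Without Des in the smooth muscle mean the change was -0.77 ± 0.16 (SE, adjusted p = 0.359).

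Kcnh2 encodes the ether-a-go-go related channel known from repolarisation of the heart and also present in smooth muscle. Its log2 level was 5.78, 5.39, 5.65, 5.71 and 5.55 on wild-type arrays F11, F14_2, F15, F16 and F17. On mutant arrays F12, F13, F18, F19 and F20 it was 5.28, 5.06, 5.26, 5.43 and 5.00. The groups overlapped through wild-type F14_2, which again was the lowest of its group, and mutant F19. The change was -0.41 ± 0.10 (SE), 1.33-fold lower, with a limma adjusted p of 0.122, and all 5 mutant arrays were below the wild-type mean. With the smooth muscle covariate it was -0.30 ± 0.11 (SE, adjusted p = 0.366), and -0.27 ± 0.13 (adjusted p = 0.682) without Des in that mean. The cardiac muscle list, of which 4 of 8 genes were tested, lay between 4.59 and 6.46 in wild type and between 4.56 and 7.22 in the mutant, and its part in the Kcnh2 result was not tested.

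**Figure D2:**
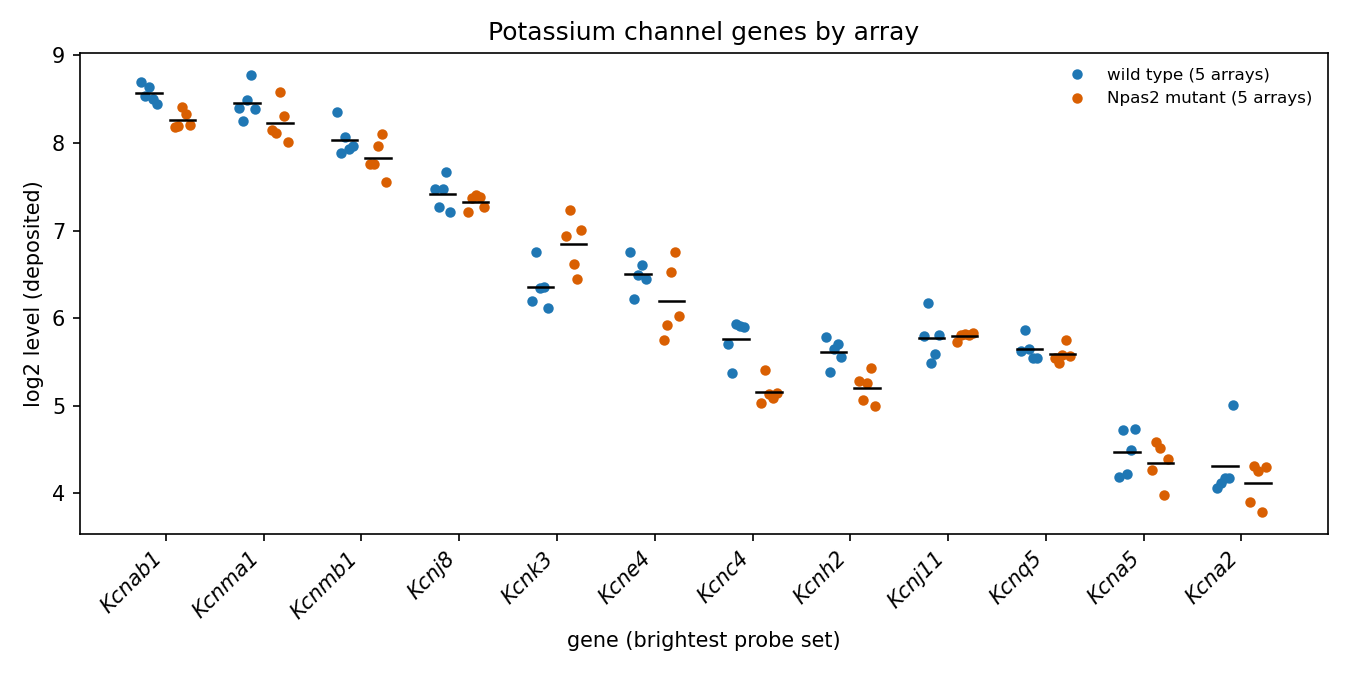
Deposited log2 level (vertical axis) of 12 potassium channel genes on each array, with 5 wild-type arrays in blue, 5 mutant arrays in orange and black bars for group means. Kcnab1 is the 1 gene here without overlap, Kcnc4 and Kcnh2 overlap through 1 low wild-type array, F14_2, and most other genes overlap widely. Probe sets differ in brightness, so heights compare groups within a gene, not genes.

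Other voltage-gated members did not stand apart. Kcnd3, a pore subunit of the transient outward current, had a change of -0.14 ± 0.12 (SE, adjusted p = 0.601), which was -0.021 without mutant F20. Kcns3, an electrically silent subunit that modifies the delayed rectifier, had one of -0.11 ± 0.13 (adjusted p = 0.695). Of 9 silent subunit genes it was the 1 bright enough to test. Among the Kv7 channels, known for holding arteries relaxed, Kcnq5 had a wild-type mean of 5.64 ± 0.13 and a mutant mean of 5.59 ± 0.10 (SD, 5 arrays each). The 95% interval of its change was -0.23 to 0.11, and a second probe set had the opposite sign, at 0.22 (adjusted p = 0.535). Kcnh3 had a change of -0.08 (adjusted p = 0.832), while its other tested probe sets had changes of 0.03 and 0.05. On the brightest Kcnh3 probe set wild-type F14_2 stood at 5.22, and no other array exceeded 4.48. The auxiliary subunit gene Kcne4, whose product modulates Kv7 channels, was the 1 of 5 Kcne genes tested. Its level was 6.76, 6.21, 6.49, 6.60 and 6.44 on wild-type arrays F11, F14_2, F15, F16 and F17, and 5.75, 5.92, 6.53, 6.76 and 6.02 on mutant arrays F12, F13, F18, F19 and F20. Mutant arrays F12, F13 and F20 were below every wild-type array, while F19 equalled the highest wild-type array to 2 decimals. The change was -0.31 ± 0.19 (SE, adjusted p = 0.445). The interacting protein genes Kcnip4 and Kcnip3, which encode calcium-binding partners of Kv4 channels, had changes of -0.11 (adjusted p = 0.817) and 0.23 (adjusted p = 0.468). Kcnip3 was at 4.70 on mutant F13 and between 3.85 and 4.05 on the other mutant arrays. Its wild-type arrays lay between 3.78 and 3.96.

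Both subunits of the large-conductance calcium-activated channel had lower means in the mutant without passing the test. This channel opens on calcium sparks and brakes contraction, with Kcnma1 encoding the pore and Kcnmb1 the beta subunit that raises its calcium sensitivity in smooth muscle. Kcnma1 had log2 levels of 8.40, 8.25, 8.49, 8.78 and 8.39 on wild-type arrays F11, F14_2, F15, F16 and F17. On mutant arrays F12, F13, F18, F19 and F20 it had levels of 8.14, 8.12, 8.58, 8.31 and 8.02. Mutant F18 was above 4 of the 5 wild-type arrays, and the other 4 mutant arrays were below the wild-type mean. The change was -0.23 ± 0.12 (SE, limma adjusted p = 0.387), with a 95% interval from -0.50 to 0.04. The other 4 tested Kcnma1 probe sets also had negative changes, from -0.38 to -0.09.

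Kcnmb1 stood at 8.36, 7.88, 8.07, 7.93 and 7.96 on the same wild-type arrays and at 7.76, 7.76, 7.96, 8.11 and 7.56 on the mutant arrays. The groups overlapped, with wild-type F11 the highest and mutant F20 the lowest. The change was -0.21 ± 0.12 (SE, adjusted p = 0.407), and its dimmer probe set differed by more, -0.37 ± 0.11 (adjusted p = 0.182). With the smooth muscle list mean as a covariate the changes were -0.19 ± 0.15 (SE) for Kcnma1 and -0.09 ± 0.13 for Kcnmb1. Without Des in that mean they were -0.10 ± 0.17 and 0.06 ± 0.13, so the sign of Kcnmb1 turned. With the brown fat list mean they were 0.04 ± 0.22 and -0.11 ± 0.23, so the sign of Kcnma1 turned. Of the other calcium- or sodium-activated channels, Kcnt2, a sodium-activated relative, had a change of 0.05 ± 0.14 (SE, adjusted p = 0.871). Kcnn4, the intermediate-conductance channel of endothelium, had one of 0.11 ± 0.08 (SE, adjusted p = 0.483), and each of the 5 mutant arrays exceeded the wild-type mean. The Kcnn4 groups still overlapped, from 3.95 to 4.36 in wild type and from 4.23 to 4.39 in the mutant. The small-conductance channel gene Kcnn3 was too dim to test, at 2.22 in wild type and 2.24 in the mutant.

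The inward rectifiers, of which 4 of 15 were tested, were close between the groups. Kcnj8 encodes the pore of the vascular ATP-sensitive channel, the target of vasodilating channel openers. Its log2 level was 7.48, 7.27, 7.47, 7.67 and 7.21 on wild-type arrays F11, F14_2, F15, F16 and F17, and 7.21, 7.38, 7.41, 7.38 and 7.27 on mutant arrays F12, F13, F18, F19 and F20. The mutant values lay within the wild-type range. The change was -0.09 ± 0.09 (SE, adjusted p = 0.632), with a 95% interval from -0.29 to 0.11. Abcc9, whose product is the sulfonylurea receptor subunit that pairs with this pore, had a wild-type mean of 10.43 ± 0.11 and a mutant mean of 10.14 ± 0.13 (SD, 5 arrays each). Its change was -0.29 ± 0.08 (SE, limma adjusted p = 0.144), and its other 2 tested probe sets had changes of -0.28 and -0.25. Abcc8, the other sulfonylurea receptor, was too dim to test (3.10 and 3.19). Kcnj11, the pore of the ATP-sensitive channel of muscle and pancreas, had a change of 0.03 ± 0.11 (SE, adjusted p = 0.926). Its mutant arrays were tight, from 5.72 to 5.83, inside a wild-type range from 5.48 to 6.17. Kcnj15 had a change of -0.07 ± 0.19 (SE) on its brightest probe set and of -0.32 ± 0.12 on the other tested one (adjusted p = 0.253). Kcnj3, the pore of a G protein-gated channel, had a change of 0.00 ± 0.10 (SE).

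The leak channel gene Kcnk3 had the largest positive change of the tested genes. It encodes an acid-sensitive channel that sets resting potential in arterial muscle, and the gene is also known to be active in brown fat. Its log2 level was 6.19, 6.75, 6.35, 6.35 and 6.11 on wild-type arrays F11, F14_2, F15, F16 and F17. On mutant arrays F12, F13, F18, F19 and F20 it was 6.93, 7.24, 6.62, 6.44 and 7.01. Each of the 5 mutant arrays exceeded the wild-type mean, and the groups overlapped because wild-type F14_2 was above mutant F18 and F19. The change was 0.50 ± 0.16 (SE), 1.41-fold higher (limma adjusted p = 0.191). Its other 2 probe sets were too dim to test and had changes of 0.25 and 0.26.

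Brown fat markers were also higher on the mutant arrays. Of 11 genes on that list 10 were on the array and tested. All 10 had a higher mean in the mutant, whereas 57.6% of all tested probe sets had a lower one. Of the 10, 8 (80%) had an unadjusted limma p under 0.05, beside 4.75% of all tested probe sets higher at that p. After adjustment 0 of the 10 passed. The list mean lay between 8.11 and 8.68 on wild-type arrays and between 8.94 and 9.70 on mutant arrays, and Ucp1, its defining gene, was bright in both groups (11.42 and 12.42). With the list mean as a covariate the change of Kcnk3 was -0.03 ± 0.25 (SE, adjusted p = 0.988). The brown fat mean separates the groups by itself, so group and covariate are hard to tell apart in that fit. With the smooth muscle covariate the change of Kcnk3 was 0.34 ± 0.18 (SE), and 0.21 ± 0.20 without Des in that mean. The other tested leak channels had changes of -0.02 (Kcnk6, adjusted p = 0.926) and 0.08 (Kcnk13, adjusted p = 0.484).

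**Figure D3:**
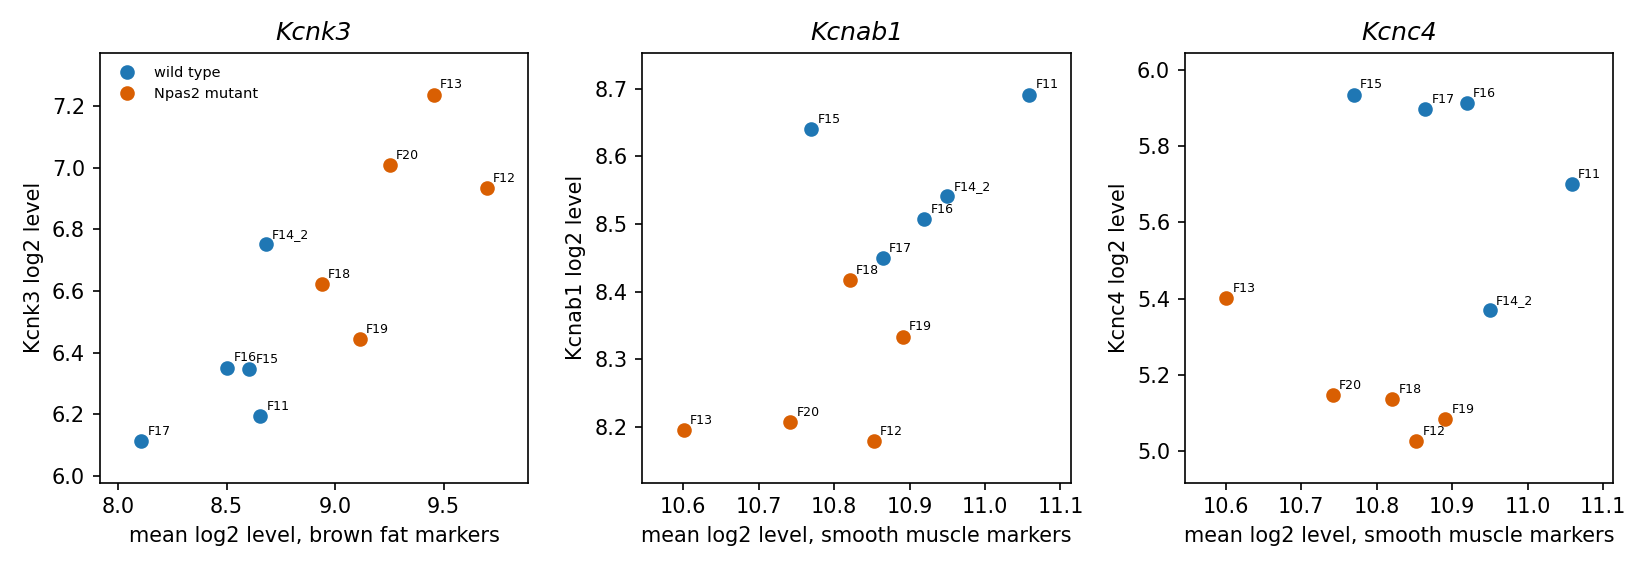
Log2 level of Kcnk3 against the mean log2 level of 10 brown fat markers, and of Kcnab1 and Kcnc4 against that of 10 smooth muscle markers, for 5 wild-type (blue) and 5 mutant (orange) arrays, each point labelled with its array. The mutant arrays lie to the right for brown fat (8.94 to 9.70 against 8.11 to 8.68), while the groups overlap along the smooth muscle axis (10.60 to 10.89 against 10.77 to 11.06). That axis includes Des, without which 3 mutant arrays lie below every wild-type array.

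Several channel genes of nerve varied more within the groups than between them. Kcna1 and Kcna2 encode channels of myelinated axons, and Kcnq3 a subunit of the neuronal M current. Kcna1 stood at 3.44, 3.56, 4.48, 4.003 and 4.96 on wild-type arrays F11, F14_2, F15, F16 and F17, and at 3.99, 4.40, 3.79, 3.76 and 3.97 on mutant arrays F12, F13, F18, F19 and F20. Its wild-type SD of 0.64 was the widest among the tested genes. Kcna2 was at 5.01 on wild-type F17 and between 4.06 and 4.17 on the other 4 wild-type arrays. Kcnq3 was at 4.83 on wild-type F17 and 4.92 on mutant F20, and between 4.13 and 4.27 on the other 8 arrays. The mean of the neuronal marker list, of which 6 of 10 genes were tested, was 6.36 on F17, 5.87 on mutant F13 and 4.98 on F20, and between 3.50 and 4.88 on the other 7 arrays. F17 was thus highest in the neuronal list, Kcna1 and Kcna2, whereas Kcnq3 was low on F13, at 4.23. The changes were -0.11 ± 0.27 (SE) for Kcna1, -0.19 ± 0.19 for Kcna2 and 0.08 ± 0.17 for Kcnq3, with adjusted p from 0.620 to 0.867. Without wild-type F17 the changes were 0.11 for Kcna1, -0.018 for Kcna2 and 0.22 for Kcnq3. With the mean of the neuronal and Schwann lists as a covariate, Kcna1 had a change of -0.17 ± 0.13 and Kcna2 of -0.23 ± 0.13 (SE), so both errors were smaller than without it. Beside the smooth muscle list mean Kcna1 had a change of -0.53 ± 0.23 (SE, adjusted p = 0.410), and beside the brown fat list mean one of 0.33 ± 0.51 (SE, adjusted p = 0.894).

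**Figure D4:**
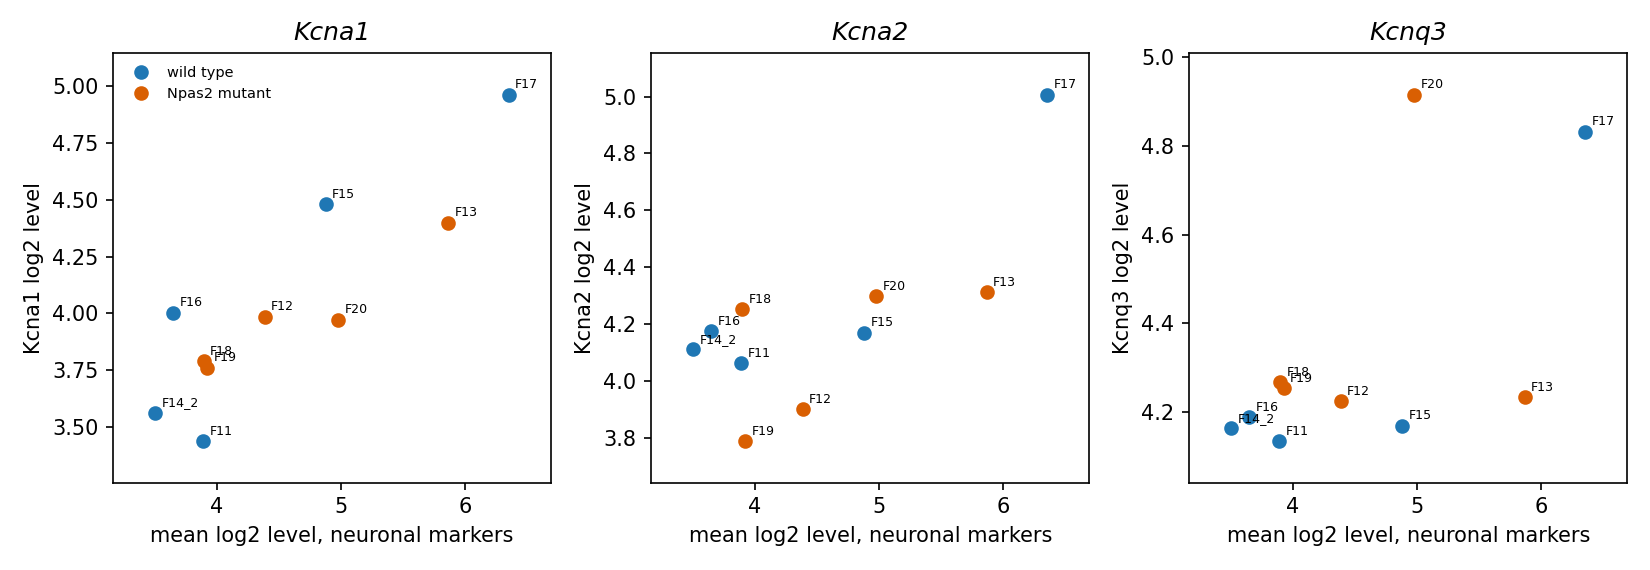
Log2 levels of Kcna1, Kcna2 and Kcnq3 against the mean log2 level of the tested neuronal markers on the 10 arrays (wild type blue, mutant orange, points labelled with the array). Wild-type F17, at 6.36 on the marker axis, is highest for Kcna1 and Kcna2, and F17 and mutant F20 stand above the other 8 arrays for Kcnq3.

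The non-coding transcript Kcnq1ot1, which silences neighbouring genes on the paternal chromosome and encodes no channel, shares the symbol stem. Its wild-type mean was 7.54 ± 0.15 and its mutant mean 7.57 ± 0.14 (SD, 5 arrays each). Its change was 0.02 ± 0.09 (SE) on the brightest probe set and -0.27 and -0.09 on the other 2 tested ones, so its probe sets differed in sign. The other 2 non-coding members, Kcnmb4os1 and Kcnmb4os2, were too dim to test.

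The 55 dim genes included channels known from arteries. Kcnj2, the strong inward rectifier, stood at 2.88 in wild type and 2.92 in the mutant. Kcnq1, a Kv7 channel, stood at 2.57 and 2.58. Kcna3 stood at 2.35 and 2.37, and Kcna6 at 2.33 and 2.44. Kcnd1 stood at 2.53 and 2.55, Kcnk2 at 2.77 and 2.85 and Kcnab2 at 2.74 and 2.85. Kcnn2, above the array median on 3 mutant arrays, stood at 3.05 and 3.30. A level this low does not show that a transcript is absent. As deposited, 52 of the 55 (94.5%) had a higher mean in the mutant, beside 82.4% of all probe sets not tested. Their median change was 0.02, the same to 2 decimals as over all such probe sets. After quantile normalisation 30 of the 55 had a higher mean (54.5%, beside 51.3% of all probe sets not tested). After centring on array medians it was 26 (47.3%, beside 43.4%). The median change is as small as the shifts between scalings, so no common direction can be given for the dim genes. Some single changes were larger and kept their sign under every scaling, in both directions. As deposited, quantile normalised and median centred, Kcnn2 had 0.25, 0.23 and 0.23, and Kcnj10 had -0.08, -0.10 and -0.10. Kcnj10 was high on wild-type F17 alone, at 2.81. Every other wild-type array lay between 2.30 and 2.33, and the mutant arrays between 2.31 and 2.35. None of the dim genes was tested.

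**Figure D5:**
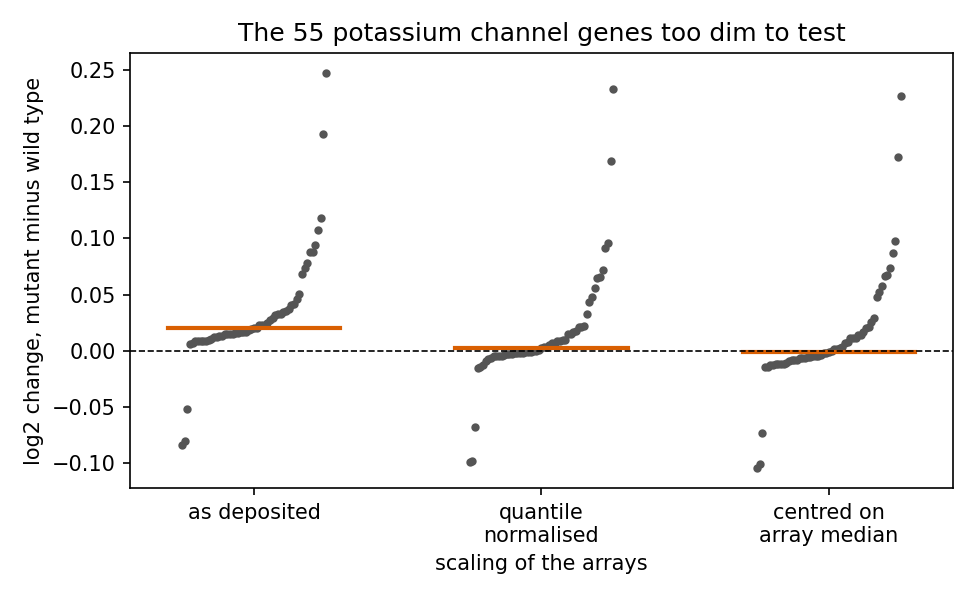
Log2 change, mutant minus wild type (vertical axis), of the 55 potassium channel genes too dim to test, sorted by size, under 3 scalings of the arrays; orange bars are medians. Of the 55 genes 52 lie above 0 as deposited, 30 after quantile normalisation and 26 after median centring.

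Genes that handle potassium but carry other names were also examined. The list held 40 genes for sodium pumps, cation-chloride cotransporters, their kinases and channel partners, of which 33 were on the array and 20 were tested. None of the 20 passed the limma test after adjustment, and 4 (20%, Abcc9 among them) did at an unadjusted p of 0.05, beside 15.3% of all tested probe sets. The groups did not overlap for 3 of the 20 (15%, beside 4.01%), Slc12a2, Atp1b2 and Cab39. Of the 20, 12 had a lower and 8 a higher mean in the mutant, with a median change of -0.04. Slc12a2, the sodium-potassium-chloride cotransporter, stood between 6.45 and 6.61 in wild type and between 6.68 and 7.16 in the mutant, with no overlap. Its change was 0.34 ± 0.08 (SE, adjusted p = 0.124). The other tested Slc12a2 probe sets had changes of 0.40 and 0.18, and on both the groups overlapped. Atp1b2, a beta subunit of the sodium pump, stood between 5.46 and 6.09 in wild type and between 5.18 and 5.45 in the mutant, again with no overlap. Its change was -0.41 ± 0.11 (SE, adjusted p = 0.153). The sodium pump subunit gene Atp1b1 had a change of 0.73 ± 0.30 (SE, adjusted p = 0.281). Its level was highest on mutant F12, at 9.19, the array with the highest skeletal muscle list mean (10.94), and the part of skeletal muscle in this difference was not tested. Its other 3 tested probe sets had changes from 0.10 to 0.50. The groups of Cab39 (named after its values were seen), an adaptor of the kinases that act on the cotransporters, did not overlap either, with a change of -0.10 (adjusted p = 0.326), while its dimmer probe set had one of -0.04.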

How the data were processed

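The authors deposited log2 expression values, 1 per probe set and array, from Affymetrix MOE 430V2 arrays. GCRMA and MAS5 appear in the submitters' processing notes, without versions or roles, and the log2 scale was read from the values (1.10 to 14.74). Of 45101 probe sets, 64 controls were left out. Of the rest, 34945 had 1 gene in the platform annotation, 932 several and 9160 none. RefSeq updated the symbols used for the other gene lists, and it altered 0 of the 84 Kcn symbols. The mutant minus wild type contrast was fitted with limma 3.58.1 (lmFit, eBayes) in R 4.3.3, two-sided, on the 22340 probe sets above their array's median on at least 5 arrays. The code was tested on simulated data. Genes are named if tested with an unadjusted p under 0.05 or without overlap, if among the 10 brightest, or if on a vascular list of 28 channels. Partner genes are named at an unadjusted p under 0.05, with Abcc8 and Abcc9, and other members are given as examples of their class. The members and lists were chosen with earlier results of these data known. Alternatives covered the filter, scaling, variance model, an ordinary one-way analysis, the choice of probe set, marker list means as covariates and each array left out. The number of arrays limits the precision.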

Additional observations from a re-analysis of the deposited data

Results flagged for a closer look

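In the 58 groups of 5 arrays examined for the tested potassium channel genes, 9 held an array far from the other 4 (a gap over 0.71 of the group's range, which chance gives in about 1 of 20 groups). Wild-type F17 was high for Kcnq3 (4.83) and Kcna2 (5.01), and mutant F20 was high for Kcnq3 (4.92). Wild-type F14_2 was high for Kcnh3 (5.22, the others between 4.26 and 4.44). Kcnt2 was low on wild-type F16 (5.98) and on mutant F12 (6.04). Kcnj11 was low on mutant F12 (5.72), within a group spanning little. Mutant F13 was high for Kcnip3 (4.70), and wild-type F15 was low for Kcnab3 (3.17).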

How the results depend on the processing

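The count of 0 potassium channel genes past the adjusted threshold held under every alternative except without wild-type F14_2, where it was 1 (Kcnc4, range 0 to 1 over the arrays left out). With probe sets shared between transcripts left out, Kcnc4 was not tested and the lowest adjusted p of the 27 remaining genes was 0.121. Probe sets called over all tested, 48, became 17 with no filter, 141 with the 75th percentile filter, 13 in the ordinary one-way analysis, and 7, 1, 16 and 2 with the skeletal muscle, brown fat, neuronal and Schwann, and smooth muscle covariates, and ranged from 9 to 43 with 1 array left out. Genes at an unadjusted p of 0.05 (4) became 9 with no filter, 2 with the 75th percentile filter and 0 with the brown fat covariate. With probe sets averaged they were 1 higher and 5 lower in the mutant, with Kcnma1 and Kcnmb1 added. In the ordinary one-way analysis they were 3 higher and 3 lower, with Kcna4 and Kcnk13 added. Without mutant F18 they were 2 higher and 4 lower, and without mutant F19 1 higher and 5 lower. Genes without overlap (1) became 2 after median centring or quantile normalisation and 0 with probe sets averaged, and ranged from 1 to 4 with 1 array left out (4 without F14_2). The median change (-0.07) was 0.017 with no filter, -0.018 after quantile normalisation, and -0.014, 0.030 and -0.0051 with the skeletal muscle, brown fat and smooth muscle covariates, and ranged from -0.083 to -0.013 with 1 array left out. With the brown fat covariate the sign turned for Kcnk3 (-0.026), Kcnma1 (0.039), Kcne4 (0.28), Kcnk6 (0.32), Kcna5 (0.030), Kcna2 (0.37) and Kcna1 (0.33). With the smooth muscle covariate without Des it turned for Kcnmb1 (0.056), Kcne4 (0.15), Kcnj15 (0.32), Kcnq5 (0.040), Kcnk6 (0.11) and Kcnq3 (-0.057). In that fit the median change was 0.040, 1 gene had an unadjusted p under 0.05 and 0 probe sets were called over all tested. The sign also turned for Kcnj15 with the skeletal (0.0083) and smooth muscle (0.085) covariates, and for Kcnk6 after quantile normalisation (0.033). It turned for Kcnq1ot1 after median centring (-0.00058) and with probe sets averaged (-0.11), and for Kcnq5 with probe sets averaged (0.079). With 1 array left out the change ranged from -0.032 to 0.070 for Kcnq1ot1, -0.052 to 0.16 for Kcnt2, -0.18 to 0.081 for Kcnj15, -0.046 to 0.13 for Kcnj11, -0.085 to 0.037 for Kcnk6, -0.053 to 0.22 for Kcnq3 and -0.27 to 0.11 for Kcna1. It ranged from -0.26 to -0.018 for Kcna2 and from -0.20 to -0.021 for Kcnd3. The cause was not tested.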
